A study of Mus musculus with 4 samples.

Results

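Complement is a set of plasma and cell surface proteins that tags microbes, immune complexes and dying cells and can open pores in membranes. In the classical pathway C1q binds its target, the proteases C1r and C1s cut C4 and C2, and the resulting convertase cuts C3. In the alternative pathway factor B, encoded by Cfb, forms a second C3 convertase that amplifies the first steps. The liver makes most plasma complement, while macrophages are a main source of C1q and fibroblasts secrete C1r, C1s and C3.

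The 9 genes described here are C1qa, C1qb, C1qc, C1ra, C1s, C4b, C2, C3 and Cfb. Their probes were taken by the gene name written on each probe of the array. The genes themselves were picked with earlier results of these data known. The array held 11 probes for them in 29 spots, out of 39429 probes, 43020 spots and 30458 gene names. C3 and C1ra had 2 probes each and the others 1. One probe each of C3 and C1qc was printed in 10 spots, and every other probe in 1. A gene with 2 probes is represented by the probe with the higher mean level over the arrays, and the second probe is given beside it.

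RNA from 4 mouse samples was hybridised to 1 one-colour Agilent array each, all on the same slide. The stem cell array held C3H mesenchymal stem cells that had been derived from embryos and came from the RIKEN cell bank. The transfected tissue array held ligament-like tissue of C3H origin, grown from those cells after transfection with gene A in the pCAGGS vector, whose promoter is strong and active in most cell types. The wild type and transgenic ligament arrays held ligament of C57BL/6J mice, without and with a pCAGGS transgene for A. Ages, the ligament sampled and the number of animals are not given in the sources used here, and neither is the identity of A, so its own level was not checked. Both ligament samples share the C57BL/6J strain and an origin in the animal, and both cultured samples the C3H strain and an origin in culture, so strain and origin cannot be told apart in any comparison between them.

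Tendon and ligament markers, 8 in all, were checked against the labels: 7 were well above background in stem cells, 6 in transfected tissue, 7 in wild type and 8 in transgenic ligament. Thbs4 and Tnc were not in transfected tissue, Mkx was not in wild type ligament and Kera was not in stem cells. Against stem cells, transfected tissue had 1 of the 8 higher (Kera, at least 5.91-fold) and 2 lower (Scx at -1.75 and Tnc by at least 4.89-fold), and against wild type ligament 2 higher and 5 lower. Over all genes with a value 10.9% were at least 2-fold higher and 13.5% lower against stem cells. Against wild type ligament 22.9% were higher and 39.8% lower. Neutrophil markers were well above background for 9 of 9 genes on both ligament arrays and for 3 of 9 on both cultured arrays. Of all genes, 55.7% were well above background in stem cells, 55.2% in transfected tissue, 49.7% in wild type and 53.9% in transgenic ligament.

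A level below is log2 of the scanner's processed signal minus log2 of the array's 75th percentile, so 0 is the level that 75 of 100 spots do not exceed. The 75th percentile signal was 1165 for stem cells, 2272 for transfected tissue, 285.5 for wild type and 302.7 for transgenic ligament, and from 49.0% to 56.3% of spots were well above background. With 1 array per group there was no replicate and no test. A difference is called where it reaches 2-fold, which is 1 on the log2 scale. The errors given are the scanner's own for a spot, 0.14 to 0.15 in log2 for the brighter members and 0.20 to 0.21 for a difference of 2 of them, and the SD over repeated spots; neither covers variation between cultures or animals. Where a probe was not well above background on the dimmer array, the difference is a bound, "at least" so many fold, computed from whichever was larger there, the dim reading itself or the dimmest reading that still counted as well above background. In whole tissue, fewer cells of a type and less RNA per cell cannot be told apart.

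**Figure D1:**
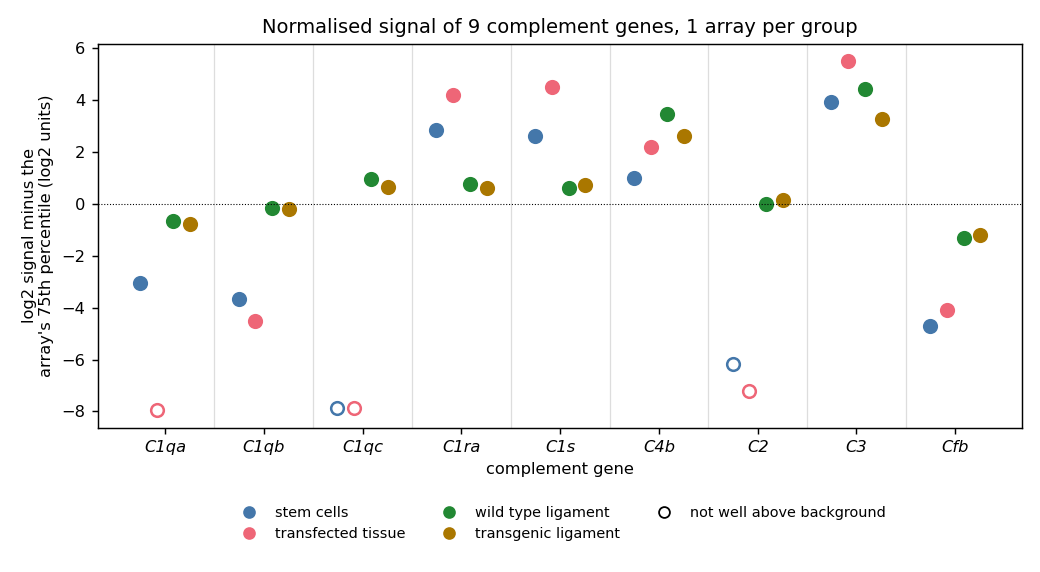
Normalised log2 signal of the 9 genes (y axis, log2 units relative to the array's 75th percentile) on each of the 4 arrays, 1 point per gene and array. Filled points are well above background and open points are not. C1qa, C1qb, C1qc, C4b, C2 and Cfb lie higher on both ligament arrays than on both cultured arrays. C1ra and C1s lie lower, and C3 is highest in transfected tissue.

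The C1q chains were read by probes at chr4:136452409-136452468 (C1qa), chr4:136436578-136436637 (C1qb) and chr4:136445766-136445825 (C1qc), mm9, minus strand. The 3 genes are neighbours, with 9128 bases between the C1qb and C1qc probes and 6583 between those of C1qc and C1qa. Their probe sequences are shown because the level of each chain rests on that 1 probe, given whole for C1qa and C1qb and as the first 30 bases for C1qc.
C1qa: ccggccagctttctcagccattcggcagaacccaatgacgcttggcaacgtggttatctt
C1qb: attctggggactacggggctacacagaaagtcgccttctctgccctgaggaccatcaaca
C1qc, first 30 bases: tctgggaaccacctaatggtattattcctg

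C1q signal was higher in both ligaments than in both cultures, though not confined to ligament. Each molecule of C1q is built from the A, B and C chains encoded by these 3 genes, and each chain was higher in wild type ligament than in stem cells. C1qc read -7.88 in stem cells, -7.88 in transfected tissue, 0.98 in wild type and 0.66 in transgenic ligament, with spot SDs of 0.165, 0.114, 0.045 and 0.049 over the 9 spots kept of 10. Neither cultured array was well above background, so wild type ligament was at least 108.9-fold above stem cells and at least 103.6-fold above transfected tissue. C1qb read -3.65, -4.52, -0.17 and -0.20 on the same arrays in the same order, well above background on all of them. Wild type ligament exceeded stem cells by 3.48 in log2 (scanner error 0.23), and transfected tissue was below wild type ligament, at -4.34 (0.27).

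C1qa read -3.05 in stem cells, -7.95 in transfected tissue, where it was not well above background, -0.65 in wild type and -0.76 in transgenic ligament. Wild type ligament was above stem cells by 2.40 (0.21), and transfected tissue was at least 6.34-fold below stem cells and at least 33.6-fold below wild type ligament. The stem cell value of C1qa rests on 1 spot whose signal was uneven. Its pixel SD was 93.7 scanner units, against a median of 39.0 over 1116 spots within 10% of its raw mean, and 96.0% of those were below it. The 1 C1qc spot left out as an outlier on that array read -3.10 with a pixel SD of 96.1, while the 9 kept read from -8.07 to -7.59. Among 152 probes in 10 spots that were mostly dim on the stem cell array, 73 of 1520 spots, or 4.8%, were marked well above background, 16 of which had not been left out as outliers. The part of such a spot in the C1qa value was not tested. Without C1qa, no complement gene of the 9 was 2-fold lower in transfected tissue than in stem cells.

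**Figure D2:**
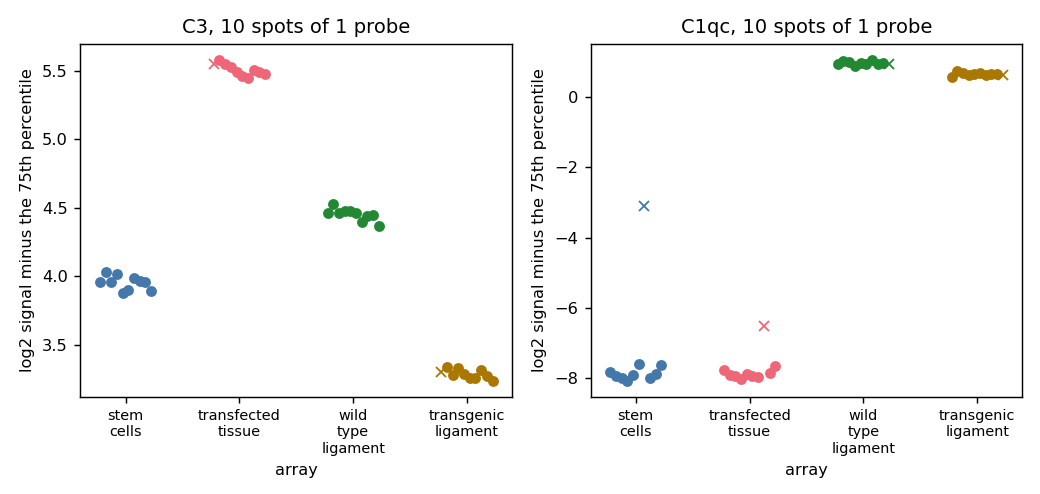
Normalised log2 signal (y axis) of each of the 10 spots of the C3 probe (left) and the C1qc probe (right) on the 4 arrays. Circles are spots kept and crosses are spots left out as outliers. On the stem cell array 1 C1qc cross lies at -3.10, far above the circles there.

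Between the ligaments the C1q chains were close. Transgenic minus wild type was -0.11 for C1qa (0.21), -0.03 for C1qb (0.21) and -0.32 for C1qc (scanner error 0.21, spot SD 0.07). The C1qc spots kept read 0.90 to 1.06 in wild type and 0.57 to 0.74 in transgenic ligament. The difference of 1.25-fold is small beside the range of ordinary genes: 28.8% of the 16461 genes with a value were lower than it.

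Macrophage markers, a list of 15 genes that leaves out C1q, were set beside the chains. On the stem cell array 7 were well above background, on transfected tissue 6, on wild type ligament 12 and on transgenic ligament 13. The share of all genes well above background was 55.7%, 55.2%, 49.7% and 53.9% on the arrays in that order. Their summed signal was 2.43, 2.02, 40.5 and 20.8 times the array's 75th percentile, in that order. Adgre1 (F4/80), Mrc1, Fcgr1, Cd5l, Tyrobp, Ctss and Laptm5 were not well above background in either culture, and Cd163 was well above background on no array. Cd68, Csf1r, Cd14, Mertk, Fcer1g and Lyz2 were well above background in both cultures. Csf1r read -0.02 in stem cells and -1.15 in transfected tissue, and Cd14 -0.14 and 0.17. In wild type ligament 11 of 13 were higher than in stem cells and 1, Cd14 at -2.10, was lower. In that comparison 37.7% of all genes with a value were higher and 24.5% lower. Between the ligaments, where 7.05% of all genes were lower, 0 were higher and 4 of 12 lower in the transgenic sample: Lyz2 at -2.70, Cd5l at -2.42, Tyrobp at -1.65 and Fcer1g at -1.63. The list median was -0.52, against -0.03 over all genes. The rest with a value differed by less than 2-fold. These were Laptm5 at -0.64, Aif1 at -0.61, Adgre1 at -0.43, Csf1r at -0.26, Ctss at -0.25, Cd68 at -0.11, Cd14 at -0.04 and Mrc1 at 0.05. The part of any of these markers in the C1q levels was not tested.

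**Figure D3:**
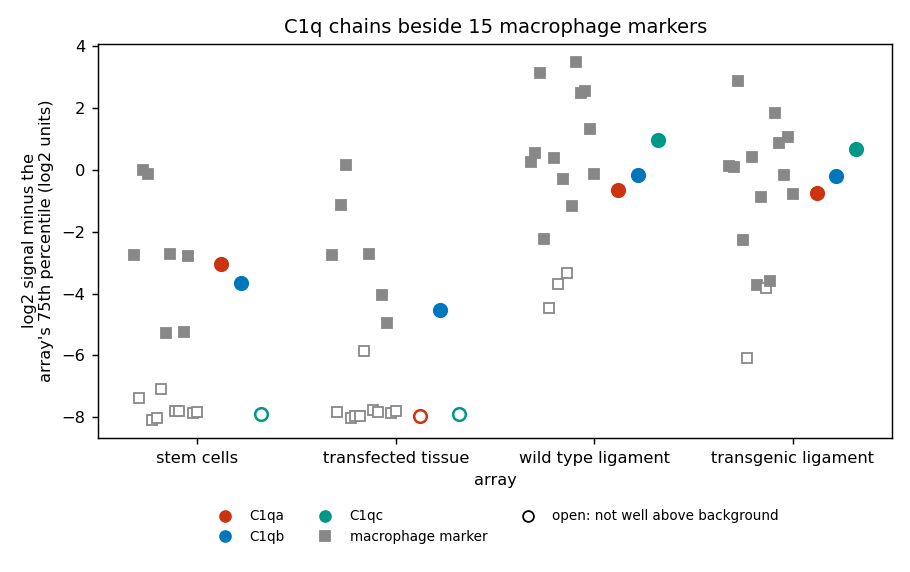
Normalised log2 signal (y axis) of C1qa, C1qb and C1qc (coloured circles) and of 15 macrophage markers (grey squares) on the 4 arrays, open where not well above background. Most squares lie near -8 and open on the cultured arrays and near 0 or above on the ligament arrays, where the C1q chains lie from -0.76 to 0.98.

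The genes whose pattern over the 4 arrays was nearest to the C1q mean were Dpf3, Tpm2, Hoxc9, Fkbp5, Stc2 and Clcn1, at distances of 0.24 to 0.49 in log2 after each profile was centred. Of 14575 genes compared, 57 lay within a distance of 1. The likeness is over 4 points, and the C1qa and C1qc points in culture are at background or rest on 1 spot.

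C1ra and C1s showed the opposite order, with both cultures above both ligaments and transfected tissue highest. C1s cuts C4 and C2 after C1r has activated it. The C1ra probe lies at chr6:124473052-124473111 on the plus strand and the C1s probe 7663 bases away at chr6:124480775-124480834 on the minus strand (mm9). Their first 30 bases are given because these are the members that were lower in ligament than in both cultures.
C1ra: tctgaccaattgttgataagcactatgatt
C1ra, second probe: aacagaagataagttagctttcgatctcag
C1s: aaagagtctgcatggaggcagggttgatca

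C1s read 2.62 in stem cells, 4.53 in transfected tissue, 0.63 in wild type and 0.73 in transgenic ligament. Transfected tissue exceeded stem cells by 1.92 in log2 (scanner error 0.20), or 3.78-fold, and only 547 of 17942 genes with a value were higher in that comparison. It exceeded wild type ligament by 3.91 (0.21), or 15.01-fold. C1ra read 2.86, 4.19, 0.77 and 0.60, and its second probe 2.94, 4.14, -0.10 and -0.05. Transfected tissue exceeded stem cells by 1.33 (0.20) and 1.20 (0.20) by the 2 probes, and wild type ligament by 3.43 and 4.24 (0.21 each). Wild type ligament was below stem cells for C1s, at -1.99, and for both C1ra probes, at -2.10 and -3.04. The ligaments differed by 0.11 for C1s and by -0.16 and 0.05 for C1ra, less than the scanner error of 0.21.

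The near-identical copy C1rb, which could share signal with C1ra, read -0.29 in stem cells, 1.05 in transfected tissue, -3.48 in wild type ligament, not well above background, and -3.27 in transgenic ligament. It was 1.34 higher in transfected tissue than in stem cells. Fibroblast genes, 10 in all, were well above background on every array, with a summed signal of 682.5 in stem cells, 563.9 in transfected tissue, 423.4 in wild type and 535.0 in transgenic ligament, in units of the 75th percentile. From stem cells to transfected tissue 10.9% of all genes with a value were higher and 13.5% lower. Of the 10 fibroblast genes, 2 were higher and 2 lower (median -0.24). Their part in the C1r and C1s levels was not tested.

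C4b and C2 encode the proteins that C1s cuts to make the classical C3 convertase. C4b was measured by a probe at chr17:34865328-34865387 and C2 at chr17:34999575-34999634, both on the minus strand. The C4b probe's annotation lists a transcript of C4a as well, so the 2 near-identical copies cannot be separated here. The first 30 bases of each probe are shown for that reason.
C4b: cctcactggattagaggctctgctctacag
C2: tctctagtgtggatgacccgtgctcctttt

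C4b read 0.99 in stem cells, 2.20 in transfected tissue, 3.47 in wild type and 2.62 in transgenic ligament. Transfected tissue exceeded stem cells by 1.21 (scanner error 0.20), or 2.32-fold, and was below wild type ligament, at -1.27 (0.20). That second difference was -0.87 after quantile normalization and -0.81 in the deposited value table, within 2-fold. Its direction rests on the scaling of the arrays, since the unscaled C4b signal was 10430 in transfected tissue and 3162 in wild type ligament. Wild type ligament exceeded stem cells by 2.48 (0.20). Transgenic ligament was lower than wild type by 0.85 on the log2 scale, at -0.85 (0.20), which is 1.80-fold and under the 2-fold limit; 9.6% of genes with a value were lower than that.

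C2 was a ligament signal. It read -6.18 in stem cells and -7.23 in transfected tissue, not well above background on either, and 0.00 in wild type and 0.17 in transgenic ligament. Wild type ligament was at least 55.4-fold above stem cells and at least 52.7-fold above transfected tissue. The ligaments differed by 0.17 (0.21).

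C3, the protein on which all complement pathways converge, was well above background on all arrays by both of its probes. Its main probe lies at chr17:57343416-57343475 and the second at chr17:57343678-57343737, both on the minus strand (mm9). The second is printed whole and the main one to 30 bases. They read 2 separate stretches of the transcript, in the same RNA samples and on the same arrays.
C3, first 30 bases: attcacagaatctatggtggtttatggttg
C3, second probe: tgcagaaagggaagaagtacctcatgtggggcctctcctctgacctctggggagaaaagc

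C3 read 3.95 in stem cells, 5.50 in transfected tissue, 4.45 in wild type and 3.29 in transgenic ligament, with SDs over 9 or 10 spots of 0.051, 0.042, 0.043 and 0.035. Transfected tissue was highest and transgenic ligament lowest. The spots of an array are repeats of 1 RNA sample, so their small spread says nothing about cultures or animals. The second probe read 3.03, 4.48, 2.94 and 1.83. Transfected tissue exceeded stem cells by 1.55 (scanner error 0.20, spot SD 0.07) and 1.45 by the 2 probes, or 2.93-fold and 2.73-fold, and it exceeded wild type ligament by 1.05 and 1.54. The probes parted on wild type ligament against stem cells, at 0.50 and -0.09, within 2-fold by both, and the main probe gave -0.02 after quantile normalization.

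Transgenic ligament had less C3 than wild type ligament, at -1.17 (scanner error 0.20, spot SD 0.06) by the main probe and -1.10 (0.20) by the second, or 2.24-fold and 2.15-fold. That difference was -0.95 after quantile normalization and -0.88 in the deposited value table, under the 2-fold limit, with the direction kept. C3 was the 1 gene of the 9 to be called between the ligaments. Of all 16461 genes with a value there, 6.29% were higher in transgenic ligament and 7.05% lower. Neutrophil markers differed between the same arrays: 9 of 9 were lower in transgenic ligament, with a median of -2.33 and a summed signal of 1195 in wild type and 426.8 in transgenic ligament. Of 18 acute phase and NF-kappaB genes 3 of the 12 with a value were lower and 0 higher, Lcn2 at -2.65, Hp at -1.40 and Ptx3 at least 2.81-fold, and 5 of 15 interferon response genes were lower and 0 higher. Tendon and ligament genes ran the other way, with 6 of 8 higher and a median of 1.72. The part of any of these in the C3 difference was not tested.

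In transfected tissue against stem cells 10.9% of all genes with a value were higher and 13.5% lower. Interferon response genes gave 9 of 18 higher and 2 lower there (median 0.99). They were led by Ifi44 at 2.91, Ifit1 at 2.39, Ifit3 at 1.82 and Mx2 at 1.82. In the acute phase and NF-kappaB list 5 of 18 exceeded 2-fold upward and 4 downward (median 0.23). Itih4, which encodes a heavy chain of the inter-alpha-trypsin inhibitor family, was at least 87.5-fold higher and Saa3 at least 4.50-fold higher, while Il6 was at -2.05 and Ptx3 at -1.97. Of 9 hepatocyte genes, 4 were well above background on each cultured array and 3 on each ligament array. Apoa2 was so on all arrays, and Trf, the transferrin gene, read 3.82 in wild type and 3.04 in transgenic ligament. Alb, Apoa1, Ttr, Fgb and Ahsg were not well above background on any of the 4 arrays. The gene whose centred pattern was nearest to C3, of 13055 compared, was the interferon response gene Oasl2, at a distance of 0.15 in log2, followed by Comtd1, Suclg2, a probe set with an Ensembl transcript name only, Wdfy3 and a further unnamed probe set, at 0.24 to 0.33. As many as 263 genes lay within a distance of 1.

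Cfb, whose product forms the alternative pathway convertase, was read at chr17:34993502-34993858, minus strand. The 60 bases of its probe span 357 bases of the genome, so it crosses a splice junction. Its neighbour C2 lies 5716 bases away by probe.
Cfb: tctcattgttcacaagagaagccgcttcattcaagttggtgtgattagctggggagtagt

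Cfb read -4.69 in stem cells, -4.10 in transfected tissue, -1.31 in wild type and -1.19 in transgenic ligament, well above background on all of them. Both ligaments were above both cultures, by 3.37 (scanner error 0.26) for wild type ligament against stem cells, or 10.4-fold. Transfected tissue was 6.87-fold below wild type ligament, at -2.78 (0.23). The difference of transfected tissue from stem cells was 0.59 (0.27), and that of the ligaments 0.13 (0.22), both within 2-fold.

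Counted over the 9 genes, transfected tissue against stem cells gave a value for 7, of which 4 were higher (C3, C4b, C1s and C1ra), 1 lower (C1qa) and 2 within 2-fold (Cfb and C1qb). Over all 17942 genes with a value 10.9% were at least 2-fold higher and 13.5% lower. The median of the 7 was 1.21 and that of all genes -0.08. Higher genes were 44.8% of all genes called there, 33.2% with normexp background correction and 55.7% with another centring.

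Transgenic against wild type ligament gave values for all 9, of which 0 were higher, 1 was lower (C3) and 8 were within 2-fold, with a median of -0.11 against -0.03 over all genes. The background was 6.29% higher and 7.05% lower of 16461 genes, so 1 of 9 is close to it.

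Wild type ligament against stem cells had 6 higher (C4b, Cfb, C1qa, C1qb, C1qc and C2) and 2 lower (C1s and C1ra) of 9, with a median of 2.48 against 0.30 over all genes. The background was 37.7% higher and 24.5% lower of 16642. Transfected tissue against wild type ligament had 3 higher (C3, C1s and C1ra) and 6 lower, with a median of -2.78 against -0.43, and a background of 22.9% and 39.8% of 16579. Higher genes made up 60.6% and 36.6% of all calls in these 2 comparisons, and 49.8% and 50.5% after quantile normalization. These comparisons share arrays, so their counts are not separate pieces of evidence.

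**Figure D4:**
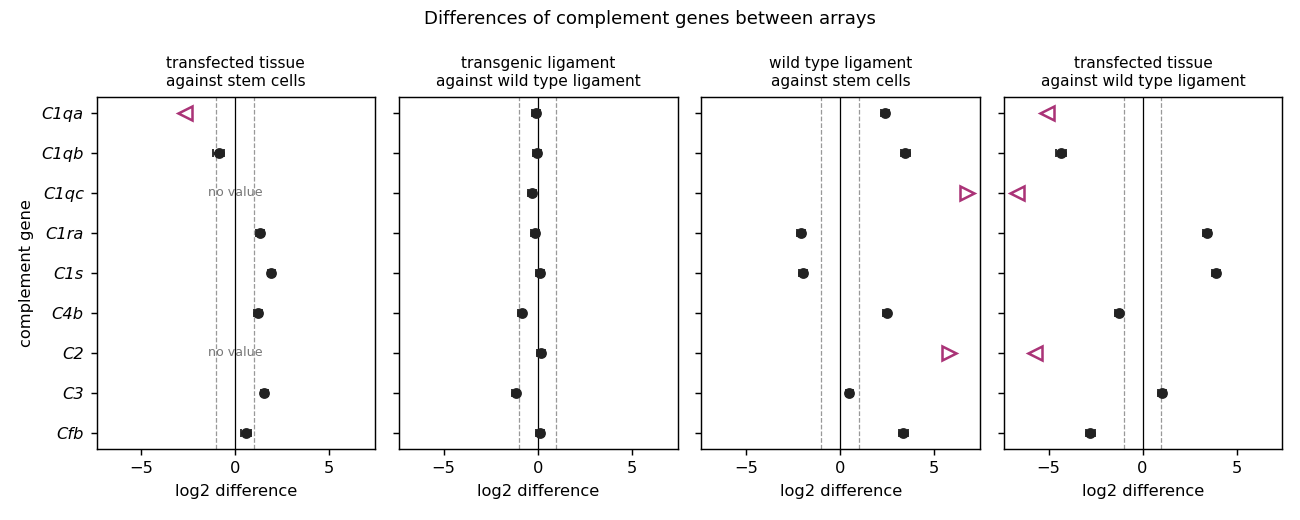
Log2 difference (x axis) of each of the 9 genes in 4 comparisons of 1 array with another, named above each panel as first against second. Black points carry the scanner error, open triangles are bounds that point away from 0, and dashed lines mark 2-fold; C3 is the 1 point past the lines in the panel of the ligaments.

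Of 39 other complement genes on a list of further components, regulators and receptors, 38 were on the array and C4a was the gene without a probe of its own name. In transfected tissue against stem cells 5 of the 22 with a value were higher and 0 lower (median 0.62), beside 10.9% higher and 13.5% lower and a median of -0.08 over all genes. Cfd, encoding factor D, the adipocyte protease that cuts factor B, was not well above background in stem cells at -5.67, and read 0.04 in transfected tissue, 6.20 in wild type and 5.89 in transgenic ligament. It was at least 52.3-fold higher in transfected tissue. The others were C1rb, Cd93, first described as a C1q receptor, at 3.13, the integrin chain Itgb2 at 1.30, and Vtn, which encodes the terminal pathway inhibitor vitronectin, at least 5.83-fold.

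In transgenic against wild type ligament 0 of 22 were higher and 6 lower (median 0.04), beside 6.29% higher and 7.05% lower and a median of -0.03 over all genes. The lectin pathway ficolins Fcna (at least 5.31-fold) and Fcnb (-1.40), properdin, encoded by Cfp and made by myeloid cells (-1.38), and Itgb2 (-1.97) were among them. The fifth was Hc, which encodes C5, at -1.32 in wild type and not well above background at -6.06 in transgenic ligament, a bound of 5.96-fold. The last was the membrane cofactor Cd46, at -2.0 and, not well above background, -6.17, a bound of 3.73-fold. Fcna, Hc and Cd46 were well above background in wild type ligament alone. On that array 64 of 1550 spots, or 4.1%, of the mostly dim repeated probes were also marked so.

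The regulators, which keep complement from acting on host cells, split between the samples. Serping1, the inhibitor of C1r and C1s, read -2.68 in stem cells, -2.87 in transfected tissue, 2.67 in wild type and 2.90 in transgenic ligament. Wild type ligament exceeded transfected tissue 46.6-fold, whereas C1ra and C1s were lower in ligament than in culture. Clusterin, Clu, was high on all arrays at 4.69, 5.37, 3.55 and 3.64. C4bp, which binds C4b protein, was at -0.76 and 0.04 in culture and not well above background in ligament. Vtn read -3.24 in transfected tissue, -1.42 in wild type and -0.48 in transgenic ligament. Cfi was well above background in transfected tissue alone, at -5.05. That level is below the dimmest well above background in wild type (-3.41) and transgenic ligament (-3.90), so it would not show there. Against stem cells the bound for Cfi was 1.66-fold, and against wild type ligament it had no value.

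Of the membrane regulators, Cd55 read -0.39, 0.51, 2.41 and 2.24, its copy Cd55b -2.21, -1.29, -1.08 and -0.97, Cd59a, which blocks the membrane pore, 0.80, 1.53, 1.26 and 1.51, and Cr1l 3.02, 2.23, 1.82 and 1.87. None of these 4 reached 2-fold between stem cells and transfected tissue or between the ligaments. The receptors C3ar1, Vsig4 and Itgax were not well above background on any array, and neither were the pore components C6, C8b and C9. The receptors C5ar2, Cd93, Itgam and Itgb2 and the pore component C8g were well above background on all 4 arrays.

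**Figure D5:**
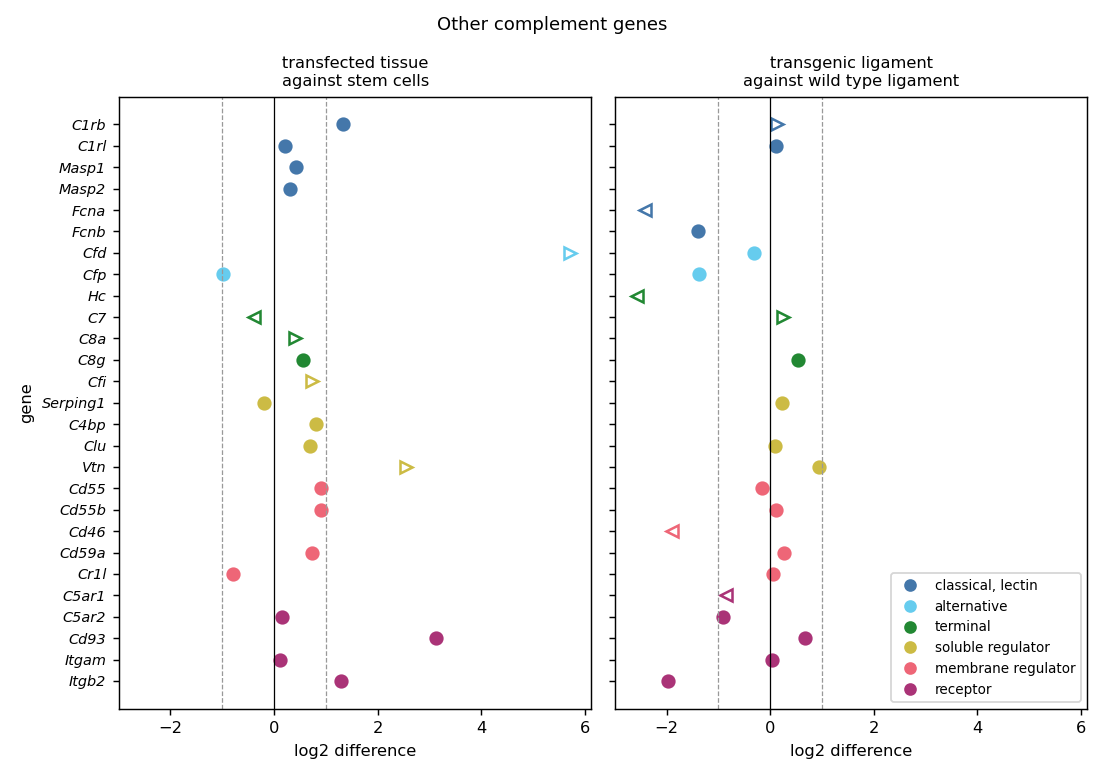
Log2 difference (x axis) of the other complement genes on the list with a value, in transfected tissue against stem cells (left) and transgenic against wild type ligament (right), coloured by role. Filled circles are measured, open triangles are bounds that point away from 0, and dashed lines mark 2-fold. Cfd lies farthest to the right on the left panel, and every gene past the lines on the right panel is on the lower side.

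RefSeq promoter sequences (250 bases before the start, build GRCm38.p6) were held for C1qb, C1qc, C1ra, C1s and C3. They are printed for C3, which was called in 3 of the 4 comparisons, and for C1qb and C1qc, which were both higher in ligament than in culture. Both strands were searched for TTGCNNAA (C/EBP), GAGGAA (the core of PU.1 sites), GGGANTTTC (NF-kappaB), GAAANNGAA (interferon-stimulated element), TTCNNNGAA (STAT) and TATAAA. Capitals mark the matches.
C3, chr17:57228137-57228386, minus strand: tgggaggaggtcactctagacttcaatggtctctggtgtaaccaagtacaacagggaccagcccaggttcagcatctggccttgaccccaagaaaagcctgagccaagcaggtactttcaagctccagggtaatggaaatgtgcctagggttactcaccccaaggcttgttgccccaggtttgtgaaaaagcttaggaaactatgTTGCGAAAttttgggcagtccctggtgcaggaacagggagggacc
C1qb, chr4:136886201-136886450, minus strand: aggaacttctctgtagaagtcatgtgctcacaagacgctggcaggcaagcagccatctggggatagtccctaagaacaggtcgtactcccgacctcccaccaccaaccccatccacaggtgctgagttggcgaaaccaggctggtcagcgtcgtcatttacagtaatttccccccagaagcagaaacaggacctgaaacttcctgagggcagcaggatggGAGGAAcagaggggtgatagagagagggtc
C1qc, chr4:136892915-136893164, minus strand: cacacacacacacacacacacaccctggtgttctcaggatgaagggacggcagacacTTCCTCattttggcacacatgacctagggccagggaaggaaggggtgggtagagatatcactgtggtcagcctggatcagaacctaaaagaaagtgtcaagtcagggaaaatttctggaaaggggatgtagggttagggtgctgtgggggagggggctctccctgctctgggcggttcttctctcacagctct

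C3 held 1 C/EBP match, TTGCGAAA, from 45 to 38 bases before the start, a motif in 9.6% of 27025 promoters of that length. C1qb held the PU.1 core as GAGGAA from 30 to 25 bases before the start, and C1qc held it on the other strand as TTCCTC from 193 to 188, a motif in 23.1% of promoters. C1s had a C/EBP match on the other strand, TTAGGCAA, from 242 to 235 bases before the first of its 2 starts, and C1ra had no match. None of the 5 genes had a match to the NF-kappaB, interferon-stimulated, STAT or TATAAA patterns, found in 1.0%, 7.2%, 7.2% and 13.0% of promoters. A match is a stretch of letters and not a measured site. C/EBP genes on the arrays read 3.12, 3.09, 4.70 and 4.84 for Cebpb and 5.51, 3.97, 4.24 and 4.98 for Cebpd, in stem cells, transfected tissue, wild type and transgenic ligament.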

How the data were processed

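RNA of 4 samples was read on 4 one-colour arrays of 1 slide, 1 array per group. The intensity values came from the deposited Feature Extraction files, whose headers name mm9 and version 10.7.1.1, while the submitters' processing notes name version 9.5.1.1, a difference left unsettled. The deposited value table holds linear intensity with the same median, 49.68, on all 4 columns, each correlating at 0.993 to 1 with its own array, and served as an alternative; how the authors scaled it is not given in the sources used here.

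Spots marked as outliers (155 to 281 per array) were left out, spots of a probe averaged in log2 and each array centred on its 75th percentile. No array had a saturated spot. Of the probes, 26761 were named through their RefSeq accession. A gene had a value where it was well above background on at least 1 of the 2 arrays. Genes whose bound did not exceed 1-fold were given no value. Analysis, quantile normalization included, used Python 3.11.15, numpy 2.4.6 and pandas 2.3.3, and normexp (offset 50) used limma 3.58.1. The code that makes the 2-fold calls was tested on simulated data. Named genes were all 9 members, other listed complement genes past 2-fold and the listed regulators, the 4 largest differences of a marker list, and the 6 nearest patterns; other genes named were chosen after their values were seen, among them Csf1r, Cd68, Mrc1, Apoa2, Trf, C3ar1, Vsig4, Itgax, C6, C8b, C9, Cebpb and Cebpd. One complement gene is not reported here and was left out of the list of other complement genes. The members and lists were chosen with earlier results of these data known. Exon positions were not assigned, since no mm9 annotation was used here.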

Additional observations from a re-analysis of the deposited data

How the results depend on the processing

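Every difference of 2-fold or more among the 9 genes kept its direction under each alternative that gave it a value. The alternatives were normexp, quantile normalization, another centring, the deposited value table and the mean of all probes of a gene. The rest were genes above background on both arrays, no filter and 3-fold calls. Among single-gene values, 228 kept their call and 4 came under 2-fold: C3 between the ligaments and C4b in transfected tissue against wild type ligament, with quantile normalization and in the deposited table. Part of the 228 could not differ. A measured value is the same with no filter and over genes above background on both arrays. For a gene with 1 probe it is also the same with the mean of all probes. Of differences under 2-fold, C3 in wild type ligament against stem cells was -0.02 by both of those, and C1qb between the ligaments was 0.04 with another centring. In transfected tissue against stem cells, the number higher was 1 with a 3-fold call, the number lower 0 over genes above background on both arrays, 0 without C1qa (an alternative chosen after seeing the data) and 2 with no filter and no bound, and the median 0.59 with no filter. Between the ligaments the number lower was 0 with quantile normalization, in the deposited table and with a 3-fold call. For wild type ligament against stem cells the median was 2.18 with normexp, 2.22 with quantile normalization and 2.13 in the deposited table. In transfected tissue against wild type ligament it was -2.52, -2.12 and -2.29 by those 3, -2.54 with the other centring and -0.11 over genes above background on both arrays, where the number lower was 3 because C1qa, C1qc and C2 drop out. The cause of the other changes was not tested. Quantile normalization shifted the median of all genes of wild type ligament relative to stem cells from 0.30 to -0.15, and from -0.43 to 0.16 in transfected tissue against wild type ligament. No paired analysis was possible because each group has 1 sample. The dimmest reading well above background was -5.79 in stem cells, -5.71 in transfected tissue, -3.41 in wild type and -3.90 in transgenic ligament, so a low level shows in culture where it would be hidden in ligament.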
